A study of Arabidopsis thaliana with 12 samples.

Results

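Of 16201 stretches of the Arabidopsis nuclear genome that held at least 1 peak of an HD-ZIPIII transcription factor, 468 held peaks of PHB, PHV and ICU4 and no peak of REV or ATHB8. They were found by merging the peaks of the 5 HD-ZIPIII lists wherever they overlapped by at least 1 bp. Of 1199 merged regions with peaks of PHB, PHV and ICU4, 458 also held REV, 18 held ATHB8 and 255 held both, which leaves the 468. They were thus chosen by the 5 peak lists themselves, and the presence and strength of PHB, PHV and ICU4 peaks in them is a description and carries no test. The TPL list and the position of genes were not used in the choice.

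The peaks came from chromatin immunoprecipitation with sequencing (ChIP-seq) of whole Ler seedlings, 10 days old, grown on agar in long days. In each line 1 endogenous locus, REV, PHB, PHV, ICU4, ATHB8 or TPL, coded for a protein whose C-terminal end was fused to 2xYPet-3xHA, and chromatin was precipitated with an anti-GFP antibody, which binds the YPet fluorescent protein. Of the 12 samples, 6 were precipitations and 6 were their inputs, and each precipitation had 1 peak list, which leaves every value without a replicate error. No list of plants without the tag entered the analysis, and whole seedlings mix all cell types, so binding in few cells and weak binding in many cannot be told apart. The lists hold no read counts, so depth is unknown, and a missing REV or ATHB8 peak means that none was listed there, not that the protein was absent.

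HD-ZIPIII proteins are homeodomain leucine-zipper transcription factors that promote the upper (adaxial) side of leaves, the shoot meristem and the pattern of vascular tissue. PHB (PHABULOSA) and PHV (PHAVOLUTA) are the most closely related pair of the family, and ICU4 is encoded by ATHB15 (CORONA). TPL (TOPLESS) is a co-repressor that does not bind DNA by itself and is brought to genes by transcription factors.

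Median width of the 468 regions was 342 bp, from 150 to 1074 bp. The PHB, PHV and ICU4 summits in them lay close together, which the required overlap of peaks in part fixes in advance. The PHB and ICU4 summits were a median of 26 bp apart, the PHV and ICU4 summits 27 bp and the PHB and PHV summits 25 bp. In 366 of 468 regions (78.2%) all 3 summits fell within 100 bp. The regions held 485 of the 2790 PHB peaks (17.4%), 484 of the 2872 PHV peaks (16.9%) and 474 of the 8964 ICU4 peaks (5.29%).

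**Figure D1:**
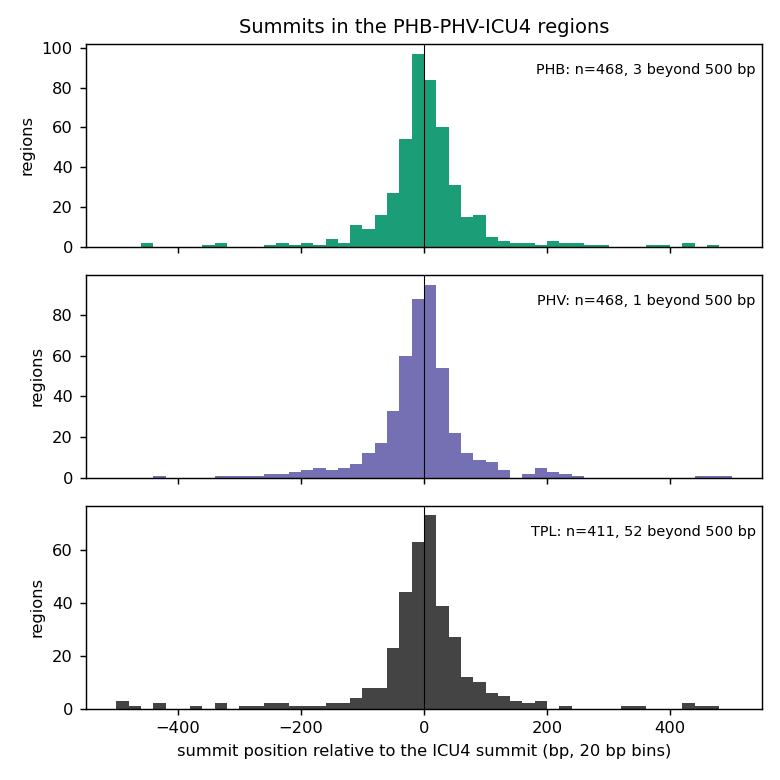
Distance of the PHB, PHV and TPL summits from the strongest ICU4 summit in the PHB-PHV-ICU4 regions, in bp (20 bp bins); the y axis counts regions. All 3 sets of summits pile up at the ICU4 summit, with 3 PHB, 1 PHV and 52 TPL summits lying beyond 500 bp.

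Fold enrichment is the authors' ratio of the precipitated signal to the local background and was read within a list. ICU4 peaks in these regions were strong for their list, with a median fold enrichment of 4.51 (range 1.95 to 10.6) against 3.17 over the whole ICU4 list, and 417 of 468 (89.1%) lay above the list's median. PHB and PHV peaks stood nearer to the middle of their lists. The PHB median was 3.32 in the regions against 3.09 over the list, and the PHV median was 3.38 against 3.14. ICU4 peaks of the regions were above the 90th percentile of the ICU4 list in 166 cases, PHB peaks above that of theirs in 42 and PHV peaks in 54. Regions holding REV as well, but not ATHB8 (458 regions), had medians of 3.69 for PHB, 3.69 for PHV and 5.44 for ICU4, and the 255 regions with all 5 proteins had 4.50, 3.97 and 7.34.

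**Figure D2:**
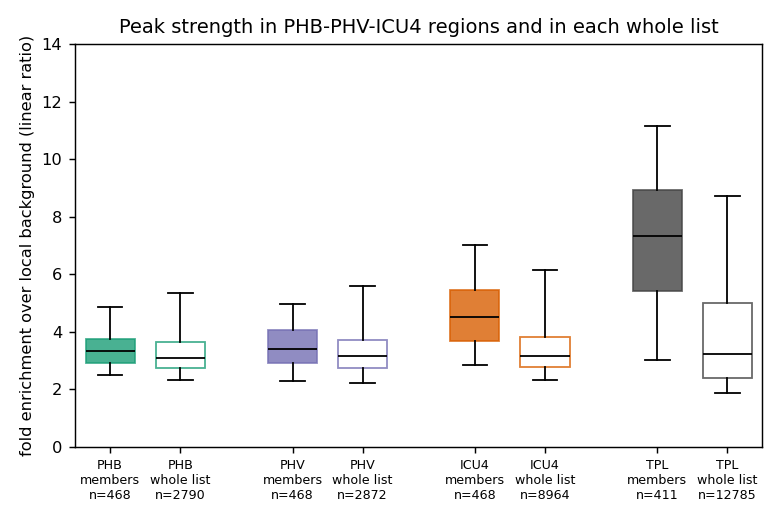
Fold enrichment over local background (linear ratio) of the strongest PHB, PHV and ICU4 peak in each PHB-PHV-ICU4 region and of the strongest TPL peak overlapping it (filled boxes), beside the whole list (open boxes). Boxes span the quartiles with the median as a line and whiskers run from the 5th to the 95th percentile; the TPL boxes differ most, with medians of 7.32 and 3.22.

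The gap to the nearest REV or ATHB8 peak had a median of 9619 bp and ran from 5 to 166241 bp, with 32 regions (6.84%) having one within 500 bp and 102 (21.8%) within 2000 bp. The members nearest to the edge of the definition lay at WRKY11, AT5G56980 and AT1G06000, with a REV peak 5, 29 and 32 bp away. Just outside it were regions at AT1G24851, AT2G41130 and AT3G04855, where an ATHB8 peak overlapped the PHB, PHV or ICU4 peaks by 45 bp, the smallest overlap found. Each of those ATHB8 peaks was 45 bp wide, so the whole peak lay inside. Their ATHB8 fold enrichments were 3.00, 2.78 and 3.31.

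TPL was present at most of these regions. A TPL peak overlapped 411 of the 468 by at least 1 bp (87.8%, exact binomial 95% interval 84.5 to 90.6, which here and below covers counting error only), against 41.8% of all merged HD-ZIPIII regions and 69% of those holding an ICU4 peak. The share was 98.7% (97.2 to 99.5) where REV was held as well and ATHB8 was not, and 84.3% (79.3 to 88.6) where all 5 proteins were. It was 86.7% (84.5 to 88.7) in 1022 regions with ICU4 and only 1 of PHB and PHV, and 60.7% (59.4 to 61.9) in 5884 regions with ICU4 alone. So the PHB-PHV-ICU4 regions and those with ICU4 and 1 partner had overlapping intervals, and both stood above ICU4 alone and below the 4-protein regions. Region width moved with these classes, with medians of 342 bp in the PHB-PHV-ICU4 regions, 458.5 bp with REV, 671 bp with all 5, 281 bp with 1 partner and 194 bp for ICU4 alone, and its part in the shares was not tested.

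A measure that does not depend on region width put the classes in the same order with other gaps. A TPL summit lay within 100 bp of the ICU4 summit in 307 of the 468 regions (65.6%, 61.1 to 69.9), against 66.2% with REV and without ATHB8, 50.6% with 1 partner, 42.4% with all 5 and 29.5% for ICU4 alone. Among the 411 regions with TPL, the strongest overlapping TPL summit was a median of 35 bp from the ICU4 summit, and 26 lay over 1000 bp away.

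The TPL peaks at these regions were strong for their list. Their median fold enrichment was 7.32 (1.86 to 14.2), against 3.22 over all 12785 TPL peaks. Of the 411, 382 lay above the median of the TPL list and 204 above its 90th percentile. Counted by TPL peak, the 402 at these regions had a median of 7.31, the 4823 at other HD-ZIPIII regions 4.26 and the 7560 at none 2.81. By region, the median TPL value was 8.16 with REV and without ATHB8, 7.05 with all 5, 5.40 with 1 partner and 4.24 for ICU4 alone, so it was not highest in the PHB-PHV-ICU4 regions. The TPL peaks at the PHB-PHV-ICU4 regions were also wide, with a median of 1101 bp against 564 bp over the list, and a wider peak overlaps a region more readily.

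TPL overlap went along with ICU4 strength. When the ICU4 list was divided by strength into 4 bins of equal size, from weakest to strongest, 14 of 19, 21 of 28, 63 of 78 and 313 of 343 of the regions had a TPL peak (73.7%, 75%, 80.8% and 91.3%). In the regions of ICU4 alone the same bins gave 45.8%, 56.3%, 71.3% and 87.9%. The share was higher in the PHB-PHV-ICU4 regions than for ICU4 alone in each bin, but the intervals overlapped in all except the weakest. There they were 48.8 to 90.9 in the PHB-PHV-ICU4 regions and 43.5 to 48.1 for ICU4 alone. In the strongest bin they were 87.7 to 94.0 and 85.2 to 90.3. With ICU4 and 1 partner the bins gave 77.7%, 74.9%, 87.7% and 95.7%, and with REV and without ATHB8 100%, 87.5%, 91.2% and 99.8%. With all 5 proteins they gave 6.67%, 22.2%, 33.3% and 96.7%. Below the strongest bin there were only 4, 16 and 34 regions with REV and without ATHB8, and 15, 9 and 18 with all 5. In the strongest bin the PHB-PHV-ICU4 share was above that of ICU4 alone and below the other classes.

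The regions were placed by their ICU4 summit on the protein-coding genes of the RefSeq table, which gives no strand, so the start and the end of a gene could not be told apart. In 200 regions (42.7%, 38.2 to 47.4) the summit lay inside a gene, against 45.8% of all merged regions, 48.3% with REV and without ATHB8, 54.1% with all 5, 62.9% with 1 partner and 71.8% for ICU4 alone. In 223 (47.6%, 43.0 to 52.3) it lay outside genes, no more than 2000 bp from one, against 43.4% of regions with REV and without ATHB8, 33.8% with 1 partner, 28.2% with all 5 and 22.6% for ICU4 alone. The remaining 45 (9.62%) were farther from any gene, against 34.1% of all merged regions, 8.30% with REV and without ATHB8, 3.33% with 1 partner, 5.61% for ICU4 alone and 17.6% with all 5. Of the summits inside genes, 135 of 200 (67.5%, 60.5 to 73.9) were within 500 bp of a gene end, against 59.7% of all merged regions inside genes, 63.8% with REV and without ATHB8, 65.6% with 1 partner, 62.0% for ICU4 alone and 47.8% with all 5. Only 2 of the 468 regions lay in gene-poor stretches, those with fewer than 10 protein-coding genes within 50 kb to each side, against 28.6% of all merged regions. The share was 0.427% in the PHB-PHV-ICU4 regions, against 0.873% with REV and without ATHB8, 0.391% with 1 partner, 3.72% for ICU4 alone and 10.6% with all 5.

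The regions were spread over the chromosomes much as all merged regions were, with 118, 68, 100, 82 and 100 on chromosomes 1 to 5 (25.2%, 14.5%, 21.4%, 17.5% and 21.4%, against 25.6%, 14.9%, 19.8%, 16.4% and 23.3% of all merged regions). Another HD-ZIPIII region lay within 2000 bp of 275 of them (58.8%). For 178 such a region was of ICU4 alone, and for 51 it held REV besides PHB, PHV and ICU4, with or without ATHB8. These counts were not made for all merged regions or other classes, so they cannot show whether the PHB-PHV-ICU4 regions cluster.

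The share with TPL differed by position. A TPL peak was present at 218 of the 223 regions outside but near a gene (97.8%, 94.8 to 99.3), at 154 of the 200 inside genes (77%, 70.5 to 82.6) and at 39 of the 45 farther away (86.7%, 73.2 to 94.9). Over all merged regions the shares were 66.5% near genes, 58.4% inside them and 4.91% farther away. Regions with ICU4 and 1 partner were close to the PHB-PHV-ICU4 regions near genes and inside them, at 96.5% (94.0 to 98.2) and 80.9% (77.6 to 83.8), with overlapping intervals, and had 97.1% (84.7 to 99.9) farther away. Median TPL fold enrichment was 7.89 near genes, 6.18 inside them and 8.37 farther away. Median ICU4 fold enrichment was also lowest inside genes, at 4.81 near genes, 3.99 inside them and 4.94 farther away, and its part in the TPL difference was not tested. With REV and without ATHB8 the share inside genes was 97.7% (94.8 to 99.3), and with all 5 proteins it was 100% (97.4 to 100). Neither interval overlapped that of the PHB-PHV-ICU4 regions inside genes.

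**Figure D3:**
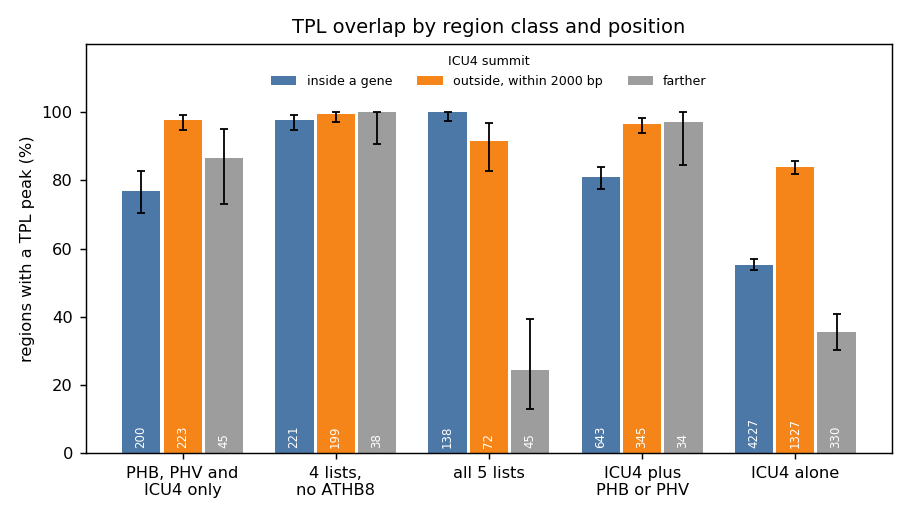
Share of regions with an overlapping TPL peak (%, bars, with exact binomial 95% intervals) by the HD-ZIPIII peaks they held and by the place of the ICU4 summit; the number in each bar is the number of regions. In the PHB-PHV-ICU4 regions the share was 77% inside genes and 97.8% outside but near them.

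The 57 regions without TPL were mostly inside genes, 46 of them, with 5 near a gene and 6 farther away. Median fold enrichment in them was 3.35 for PHB, 3.16 for PHV and 4.05 for ICU4, against 3.32, 3.39 and 4.56 in the regions with TPL. The strongest by mean rank in the PHB, PHV and ICU4 lists was inside GLC (GLAUCE, AT1G65450), from 24318517 to 24319048 on chromosome 1 of TAIR10, with fold enrichments of 5.83 for PHB, 5.43 for PHV and 8.23 for ICU4. The next, with ICU4 at 7.34, lay 12699 bp from its nearest gene, AT4G04404. It was followed by regions inside AT1G20795, AT2G15020, AT1G28700 and AT4G15750, with ICU4 values of 7.60, 6.46, 6.46 and 5.95.

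The nearest protein-coding gene within 2000 bp was taken as the neighbour of a region. The 423 regions with such a gene had 412 neighbours, 1.5% of 27444 genes, and 11 genes had a pair of regions. A TPL summit was assigned to 365 of the 412 (88.6%), against 33.7% of all genes. A REV or ATHB8 summit elsewhere at the same gene was found for 78 (18.9%), against 7.72% of all genes, so most neighbours had neither. The 78 include PHB, BAS1, PIF5, PAR1, JAZ9, PYL5, HAI1, HB16 and WRKY22, named below. A REV peak lay 320, 2115, 545, 986, 707, 889, 2311, 382 and 681 bp from their regions in that order. AT2G25250, also among the 78, had a REV peak 397 bp and an ATHB8 peak 279 bp away. REV and ATHB8 peaks each lay 472 bp from the CKX6 region, and 779 and 823 bp from that at AT3G17850. Among 25 gene lists with 436 distinct genes, 28 genes from 17 lists were neighbours, 6.42% of those listed. The lists were chosen with earlier results of these data known, so their share against 1.5% is a count and not a finding about them. Where values are given without a name below, 3 in a row are the fold enrichments of PHB, PHV and ICU4 in that order, and a pair in parentheses is ICU4 and then TPL.

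Genes of the HD-ZIPIII, TPL and HD-ZIPII families each had 1 neighbour. Of 8 HD-ZIPIII and ZPR genes only PHB (AT2G34710) was a neighbour, the ZPR proteins being small partners that block HD-ZIPIII proteins. Its region spanned 14645702 to 14645936 on chromosome 2, 1481 bp outside the gene, with fold enrichments of 2.91 (PHB), 3.72 (PHV), 4.69 (ICU4) and 9.23 (TPL). A REV peak lay 320 bp from this region, and further PHB and ICU4 peaks outside the region overlapped it. The summit of that further ICU4 peak lay 543 bp from the ICU4 summit of the region. The TPL summit lay 603 bp from the ICU4 summit of the region on the same side. So the TPL value of 9.23 belongs to a summit nearer to the further ICU4 peak than to the region's own. Of 5 TPL-family genes only TPR1 (AT1G80490), which encodes a co-repressor of the TOPLESS family, was a neighbour. Its region, from 30267162 to 30267636 on chromosome 1 and 238 bp outside the gene, had 2.77 (PHB), 2.88 (PHV), 7.09 (ICU4) and 14.2 (TPL), the last being the highest TPL value at any of the 468. The TPL and ICU4 summits there were 4 bp apart. Of 10 genes of the related HD-ZIPII family, HB18 was a neighbour (3.61, 3.36 and 4.94 for PHB, PHV and ICU4, and 3.29 for TPL).

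Brassinosteroid genes had 4 neighbours of 24, the joint highest number of any list. BEH3 (AT4G18890), a homologue of the brassinosteroid-response factors BES1 and BZR1, had its region from 10351883 to 10352325 on chromosome 4, 294 bp outside the gene. The values were 4.75 (PHB), 6.68 (PHV), 5.19 (ICU4) and 9.32 (TPL). DWF4, which encodes a hydroxylase of brassinosteroid synthesis, had a pair of regions. The one 444 bp outside it had 4.19, 3.89 and 6.08 for PHB, PHV and ICU4 and 8.72 for TPL, and the one inside it had 2.55, 1.91 and 3.73 and 6.0 for TPL. BAS1, which encodes an enzyme that inactivates brassinosteroids, had 4.84, 3.58 and 3.60, with TPL at 13.0, the fourth strongest TPL peak at a neighbouring gene. BEH2 was weak in ICU4 (3.70, 2.55 and 1.95), with TPL at 8.99. All 4 genes had a TPL peak, as did 88.1% of the 412 neighbours. The 4 include a gene for synthesis and one for inactivation. Of the 24 listed genes, 20 had a TPL summit, 16 an ICU4 summit and 6 a REV summit.

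Light-signalling genes likewise had 4 of 26. PHYB (AT2G18790) encodes the main red-light receptor of seedlings, and its region, from 8139458 to 8139801 on chromosome 2, lay 158 bp outside the gene. Fold enrichment in it was 3.99 (PHB), 4.41 (PHV), 5.82 (ICU4) and 10.5 (TPL), and the ICU4 and TPL summits were 1 bp apart. PIF5, a basic helix-loop-helix factor that phytochromes act on, had 3.53, 3.38 and 4.43, with TPL at 3.56. PAR1 and PAR2, a pair of helix-loop-helix proteins of the shade response, had ICU4 values of 4.31 and 5.70 and TPL values of 8.82 and 10.3. Of 19 clock genes LNK2 was a neighbour, with 3.40, 5.25 and 4.52 and TPL at 10.7.

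**Figure D4:**
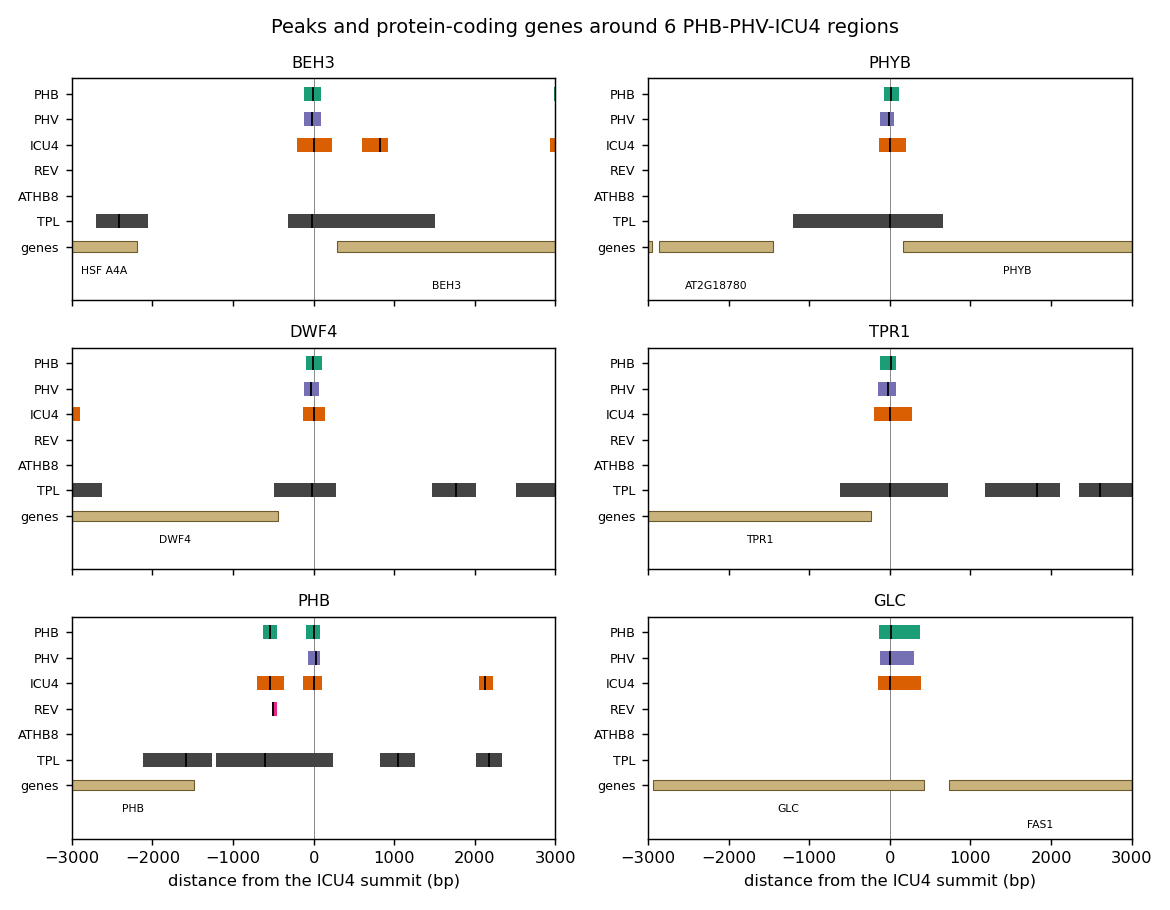
Peaks of the 6 lists and protein-coding genes around 6 PHB-PHV-ICU4 regions, by distance from the ICU4 summit (bp); black ticks are summits and each row is 1 list. TPL peaks cover the region at BEH3, PHYB, DWF4, TPR1 and PHB but not at GLC, and the REV peak at PHB lies 320 bp from the region.

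The auxin lists had 5 neighbours, in transport, response and perception. AUX1, an auxin influx carrier, was the neighbour among 12 transporter genes (3.41, 3.02 and 4.18, with TPL at 7.77). Of 29 Aux/IAA repressors, IAA1 and IAA19 were neighbours, with ICU4 at 3.88 and 6.99 and TPL at 6.22 and 8.74. Of 21 receptor and ARF genes, ARF8 (5.10 for ICU4, 5.34 for TPL) and AFB2, an auxin receptor F-box (5.74 and 6.40), were. None of 14 auxin biosynthesis genes and none of 11 GH3 genes, a family of enzymes that conjugate auxin, jasmonate and other acids to amino acids, was a neighbour.

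Genes of other hormones followed. PYL5, an abscisic acid receptor, and HAI1, a phosphatase of that pathway, were the neighbours of 23 (ICU4 at 5.44 and 4.18, TPL at 9.44 and 10.1). CKX6, which breaks down cytokinin, was the 1 of 17 cytokinin genes (5.19 and 10.2, with summits 816 bp apart), and JAZ9, a jasmonate repressor, the 1 of 16 jasmonate genes (6.53 and 6.51). GA3OX4, which activates gibberellin, had 3.85, 4.71 and 5.70 and no TPL peak, whereas GA2OX6, which inactivates it, had 3.20, 2.76 and 5.19 with TPL at 7.74. None of 11 ethylene-signalling genes was a neighbour.

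The lists of leaf polarity and vascular genes had 1 neighbour each. AS1, a MYB factor of leaf polarity, was the 1 of 12 (2.80, 3.99 and 4.05, TPL at 8.51), and VND2, a NAC factor of xylem vessels, the 1 of 28 vascular genes (3.62, 2.64 and 4.43, TPL at 3.65). The lists of shoot meristem (17), stomatal lineage (14), CIN-type TCP (8) and SOC1-clade (6) genes had none. Among 33 xyloglucan enzymes XTH27 and XTH18 were neighbours, and none of 23 expansins was. The light-harvesting and RuBisCO small-subunit genes, a control for strong transcription, had 1 of 24, LHCB3 (3.17, 2.33 and 2.72, no TPL). Of those 24, 19 had an ICU4 summit, 14 a REV summit and 21 a TPL summit. Over all genes the shares were 5.76% for REV and 33.7% for TPL, and that for ICU4 was not counted. The part of transcription in TPL overlap was not tested.

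**Figure D5:**
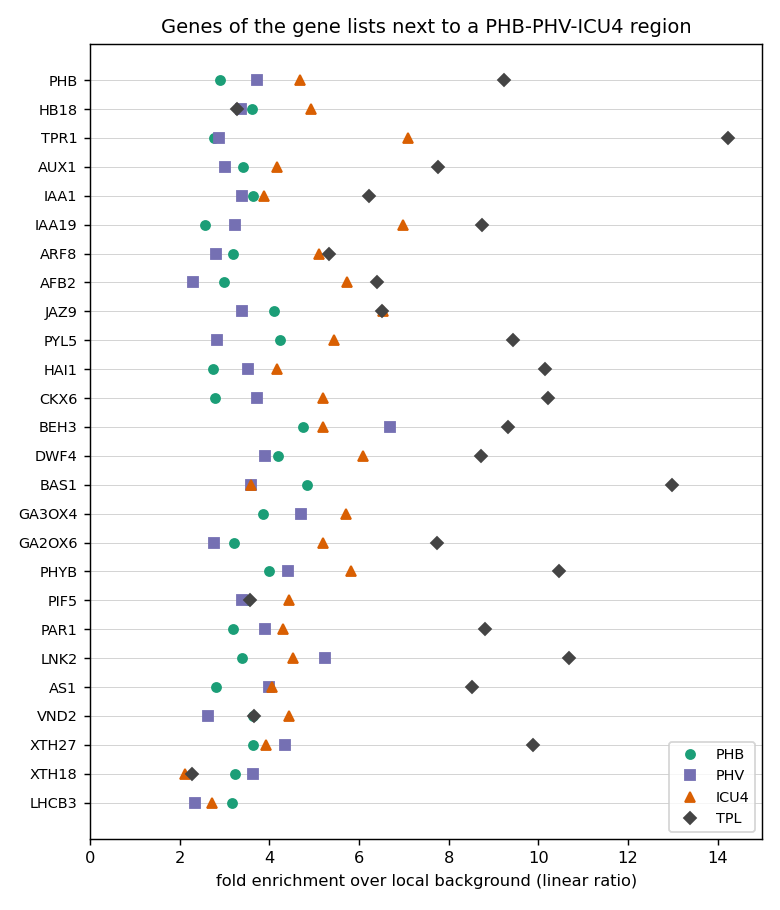
Fold enrichment over local background (linear ratio) in each of the 4 lists for 26 genes of the gene lists next to a PHB-PHV-ICU4 region, up to 3 a list, using the best region of each gene. GA3OX4 and LHCB3 had no TPL peak. TPL was the highest of the 4 values at 19 genes, but values of separate precipitations of unknown depth cannot rank the proteins.

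The strongest of the 468 by mean rank in the PHB, PHV and ICU4 lists lay inside AT3G17520, from 5999296 to 6000129 on chromosome 3, with 7.20, 5.86 and 10.6. TPL there was 3.09, with its summit 724 bp from that of ICU4. The second was next to AT3G17850, with 6.51, 6.77 and 9.24 and TPL at 11.3, at a summit 1592 bp from that of ICU4. TCP23 (AT1G35560), a TCP transcription factor, held 6.51, 4.95 and 8.23 with TPL at 3.96. AT1G77280, AT2G25250, AT3G01740, AT5G47380, AT1G07590 and BEH3 also ranked in the first 12 genes, with ICU4 between 5.19 and 7.85 and TPL between 3.95 and 9.32. So 9 of these 12 had TPL, the others being GLC, AT1G20795 and AT2G15020.

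None of the 8 genes with the strongest TPL peaks was among those 12. After TPR1 came HB16, a class I homeodomain leucine-zipper gene, with TPL at 13.8 and ICU4 at 3.29. Its TPL summit lay outside the region, 468 bp from the ICU4 summit. SAUR14 (AT4G38840), of a family of small auxin-induced proteins, had TPL at 13.3 and ICU4 at 5.70, within a TPL peak from 18124995 to 18130026 on chromosome 4. AT2G45600, AT3G13800 and AT5G01800 had TPL values of 12.8, 12.5 and 12.0. WRKY22, a factor of immune responses, had TPL at 12.1, but that summit was 2396 bp from the ICU4 summit.

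Of the 11 genes with a pair of regions, 6 are given here. WAT1, a vacuolar auxin transporter known for stem wall thickness, had one region inside it (2.86, 1.99 and 4.81, TPL at 7.61) and one 1384 bp outside (4.70, 4.35 and 5.55, TPL at 6.89). CAM3, a calmodulin gene, had TPL (5.41) only at the region outside it. AT5G05140, AT1G01490 and XTH27 also had 1 region inside and 1 outside, all with TPL, as DWF4 did. In each of these 6 genes the region outside was stronger in PHB, PHV and ICU4, apart from PHB at XTH27 and ICU4 at AT5G05140. PHB was 3.62 outside XTH27 and 3.78 inside it, and ICU4 was 4.74 outside AT5G05140 and 6.08 inside it.

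Gene functions were also counted by words in the symbols and synonyms of the RefSeq table, which names few genes, so these counts are low for all classes. Transcription factors and DNA-binding proteins made up 30 of the 412 neighbours (7.28%), against 2.73% of all genes, and all 30 had TPL at a region of theirs, as did 363 of the 412 (88.1%). Cell wall names made up 2.43% against 0.995%, ubiquitin and F-box names 2.18% against 0.787% and auxin names 1.46% against 0.506%. Kinase names made up 2.43% against 2.03% and transporter names 1.46% against 1.60%. The kinase matches include AT1G05805, whose synonym names a kinase substrate, so these are shares of names and not of functions. No neighbour was named as a ribosomal protein, a name that 0.244% of all genes carry. These words were read without a test.

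The following examples of the classes were chosen after their values were seen. HSFC1, a heat-shock factor, had 2.94 for PHB, 2.27 for PHV and 3.80 for ICU4, and its TPL value of 11.2 was at a summit 991 bp from that of ICU4. BZIP61 and BZIP53, leucine-zipper factors of another class, had ICU4 at 4.31 and 4.94 and TPL at 8.71 and 8.33, with TPL summits 1 and 3 bp from ICU4. BLH2, a BEL1-like homeodomain gene, had a region inside it with 2.85, 2.37 and 4.31 and TPL at 7.72. Among cell wall genes, FLA17 and AGP20, which encode arabinogalactan proteins, had ICU4 at 6.86 and 6.33 and TPL at 9.43 and 6.03. PERK3, a kinase of the cell surface, and CSLB01, of a cellulose synthase-like family, had ICU4 at 5.32 and 4.56 and no TPL peak. NRT1.1, a nitrate transporter, and SULTR1;2, a sulfate transporter, each held a region inside the gene, with ICU4 at 4.43 and 4.31 and TPL at 6.81 and 9.20.

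Some of the 45 regions over 2000 bp from a protein-coding gene were strong, and these too were picked after their values were seen. The region nearest to RGL1, a DELLA repressor of gibberellin responses, lay 4130 bp from it with 3.80, 3.99 and 5.82 and TPL at 13.0. The one nearest to KNAT3, a KNOX homeobox gene, lay 4909 bp away with 4.17, 4.08 and 4.94 and TPL at 7.54. TCP15 and TOE2, both transcription factor genes, were 2322 and 2130 bp from theirs, with ICU4 at 4.63 and 5.65 and TPL at 6.97 and 4.85. These genes were not counted among the 412.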

How the data were processed

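The submitters' processing notes name Bowtie2, MACS2 and TAIR10, without versions. The deposited lists hold, per the file headers, the start, end, summit, pileup, p-value, fold enrichment and q-value of each peak. The authors' pileup is a coverage signal of unstated scale. The deposited p-value and q-value are −log10 values. The deposited fold enrichment is a linear ratio to local background, as MACS2 defines it. Per the series text, precipitations were made in duplicates and set against their own input. The sources used here do not say whether duplicates were pooled. Input files were not used here.

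Peaks of the REV, PHB, PHV, ICU4 and ATHB8 lists on the 5 nuclear chromosomes were merged at 1 bp overlap. Each region was represented by its strongest ICU4 summit and given to the nearest of 27444 protein-coding genes of the RefSeq table (TAIR10.1, with no strand, exons or sequence) within 2000 bp. The nuclear chromosomes of TAIR10.1 were taken to have TAIR10 coordinates. Shares carry exact Clopper-Pearson 95% intervals. Peaks and regions are not replicates, each group had 1 sample, and no p-value was computed. The merging and overlap steps were tested on simulated data. A planned search for sequence motifs was not run. Alternatives covered the merging, the peak threshold, the TPL overlap and the gene distance.

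The members and gene lists were chosen with earlier results of these data known. Genes named are the 12 best by mean rank, the 8 with the strongest TPL peaks, the 5 best without TPL, up to 3 of each gene list, 6 with a pair of regions and those at the edge of the definition. BEH2 and PAR2 complete their lists, and they and the examples so described were added after their values were seen. Analyses used Python 3.11.15, pandas 2.3.3, numpy 2.4.6, scipy 1.17.1 and matplotlib 3.10.9.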

Additional observations from a re-analysis of the deposited data

Results flagged for a closer look

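The ICU4 list held 77 peaks on the chloroplast and mitochondrial genomes, which no comparison used. The REV list held 1 such peak, and the other lists held none. The highest fold enrichment among them was 1.73 for ICU4 and 1.92 for REV.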

How the results depend on the processing

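The number of regions stayed within 1.5 times of 468 under every alternative tried except one: keeping only PHB, PHV and ICU4 peaks at or above their list's median fold enrichment, with the REV and ATHB8 lists whole, left 206 regions and 174 neighbouring genes. Under that setting 28.6% of the regions lay inside a gene. With every list limited to its stronger peaks the share inside a gene was 30.5% and the share with TPL 93.3%. Lists of equal length gave 679 regions, close to the limit of 1.5 times, with 579 neighbouring genes and a TPL share of 94.4%. The share with TPL fell to 81.6% with the stronger TPL peaks only, to 73.3% when the TPL summit had to lie inside the region and to 65.6% when it had to lie within 100 bp of the ICU4 summit. Counting every gene within 2000 bp gave 709 genes. The cause of these shifts was not tested. The other alternatives, among them merging within 100 bp, summit windows of 200 bp, a TPL cover of at least 50%, region centres and leaving out regions with REV or ATHB8 within 500 bp, moved no value beyond those limits. No paired analysis was possible because each group had 1 peak list. Unknown depth limits what an absent REV, ATHB8 or TPL peak can show.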

Other observations

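Several further neighbours of the PHB-PHV-ICU4 regions were noted after their values were seen, and they are given as values only. In the abscisic acid pathway, AFP1 and AFP3, which encode binding partners of ABI5, had ICU4 fold enrichments of 4.31 and 5.32 and TPL values of 9.25 and 8.89. ABF3, a bZIP factor of the same response, had 3.80 and 8.98, and CYP707A3, which breaks down abscisic acid, had 3.17 and 8.02, its TPL summit lying 1286 bp from that of ICU4. KAI2, the karrikin receptor, had 3.42 for ICU4 and 7.16 for TPL, and SMXL2, one of the repressors that act below it, had 4.69 and 8.90. IBH1 and BEE2, helix-loop-helix proteins of the brassinosteroid response, had ICU4 at 3.87 and 2.93 and TPL at 4.1 and 7.21. LNK3 had 5.07 and 11.3, and IPT3, a cytokinin synthesis gene, 3.55 and 5.11. ERF4, a repressor of the ethylene response family, had 6.33 and 9.79 with its TPL summit 1869 bp from that of ICU4, and ACS2, an ethylene synthesis gene, 5.37 and 5.53.

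Some families had several members. Of 9 tandem CCCH zinc-finger genes in the table, 4 were neighbours: OZF1, SZF1, TZF5 and TZF9, with ICU4 at 5.70, 5.19, 6.22 and 3.77 and TPL at 8.15, 6.83, 11.5 and 10.1, the last at a summit 1024 bp from that of ICU4. All 9 had an ICU4 summit and 6 had a REV or ATHB8 summit. The share of all genes with an ICU4 summit was not counted, so the ICU4 counts of these families have no baseline. Of 71 WRKY genes, WRKY7, WRKY11, WRKY17 and WRKY22 were neighbours, each with its region inside the gene. A REV peak lay 46, 5, 540 and 681 bp from those regions in that order, and of the 71 genes 27 had an ICU4 summit and 17 a REV or ATHB8 summit, against 7.72% of all genes for REV or ATHB8. The NAC (104 in the table), bZIP (40) and arabinogalactan (50) genes also had 4 neighbours each, and 1.5% of all genes were neighbours.

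Small-RNA genes also lay beside such regions, and TAS3 and MIR164b are given in full. MIR2933b and MIR860 lay 876 and 697 bp from other ICU4 summits, the first region with TPL at 9.79 and the second without TPL. TAS3, the source of the small RNAs that target ARF genes of leaf polarity, was 111 bp from an ICU4 summit on chromosome 3 (region from 5861166 to 5861488, with 3.47 (PHB), 4.26 (PHV), 4.31 (ICU4) and 8.90 (TPL)). MIR164b, the gene of a microRNA that targets boundary NAC genes, was 8 bp from one on chromosome 5 (287461 to 287878, with 3.09, 3.09, 3.67 and 2.16). Of the 45 regions farther than 2000 bp from a protein-coding gene, 23 (51.1%) had a non-coding gene or pseudogene within that distance, beside 76 of the 223 near a protein-coding gene (34.1%) and 52 of the 200 inside one (26%). Over all merged regions the shares were 82.8% farther away, 46.5% near a gene and 23.5% inside one.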
